A study of Mus musculus with 111 samples.

Results

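Pax7, Myf5, Myod1, Myog, Myf6 and Mymk, the transcription factors of the skeletal muscle lineage together with a muscle fusion protein, were followed through 16 groups of mouse gastrocnemius muscle. Their probe sets were those whose only platform gene symbol was one of the 6 names, and a gene with several was read from the one with the highest mean. The 6 genes stand among 18194 genes with a probe set, and all 6 were among the 16029 genes that passed a filter on low signal and were tested. All values are MAS5 signals, a relative brightness with no absolute unit, and differences are on the log2 scale after 3.98 was added to each signal, which understates the change of dim genes.

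Skeletal muscle keeps a reserve of satellite cells under the sheath of each fibre, and Pax7 is the transcription factor that marks them. When these cells are activated, the basic helix-loop-helix factors Myf5 and Myod1 commit them to the muscle lineage, Myog starts their terminal differentiation, and Myf6 (MRF4) acts late and is the family member that mature fibres express most steadily. Mymk (myomaker) is a membrane protein that lets committed myoblasts fuse with each other and with fibres. The factors bind DNA as dimers with E proteins, and the Id proteins block that pairing. Denervated and injured muscle is known for raised Myog.

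Male C57BL/6 mice, 8 weeks old per the design text, gave 1 array per muscle, 111 arrays from 70 animals. Cast right legs numbered 10, 7 and 9 at days 2, 7 and 14, against 9, 8 and 9 uncast left legs of the same cohort. The tenotomy cohort, in which an Achilles tendon was cut, gave 5, 7 and 5 left legs labelled tenotomy and as many right legs labelled control. Sham animals, whose tendon was exposed and handled but left whole, gave 3, 7 and 8 right legs, and 7 right legs came from naive animals. Tenotomy was done under ether and ketamine-xylazine anaesthesia. For 25 casting animals and 16 tenotomy animals both legs were measured. Leg side goes with treatment in each model and the cohorts were numbered separately, so neither side nor cohort can be told apart from treatment.

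The labels conflict on the operated leg of the tenotomy cohort. The design text places the cut on the right and the control on the left, whereas the sample labels call the left legs tenotomy and the right legs control. The sample labels were kept, and the legs are called the left legs labelled tenotomy and the right legs labelled control throughout, so no direction below is a direction of tenotomy itself. All 10 listed markers of mature skeletal muscle fibres lay above the array's 40th percentile on every array. The right legs labelled control stood apart in other markers too. The summed signal of 10 macrophage markers ran from 712 to 1397 in left legs labelled tenotomy and from 10962 to 13232 in right legs labelled control at day 2, and from 1101 to 1990 in sham muscles. A ratio of 3′ to 5′ signal of beta-actin, a measure of RNA quality, was taken on the log2 scale, and its median lay between -0.90 and -0.29 in the left legs, between 0.14 and 0.18 in the right legs and between -1.34 and -1.08 in sham muscles. The same ratio for Gapdh lay closer together. Its medians ran from -0.28 to -0.23 in left legs, -0.30 to -0.22 in right legs and -0.20 to -0.18 in sham muscles.

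How far each gene could be read differed. The deposited matrix holds no detection call, so a mark of low signal was set at the 40th percentile of each array, which lay between 9.65 and 17.8. Myod1, Myog and Myf6 lay above it on 111 of 111 arrays, and Pax7 on 106. Myf5 did so on 57 arrays and Mymk on 23. Mymk was above it on all arrays of only 1 group, the 5 right legs labelled control at day 2. In bulk muscle, fewer cells of a type and less RNA per cell cannot be told apart.

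**Figure D1:**
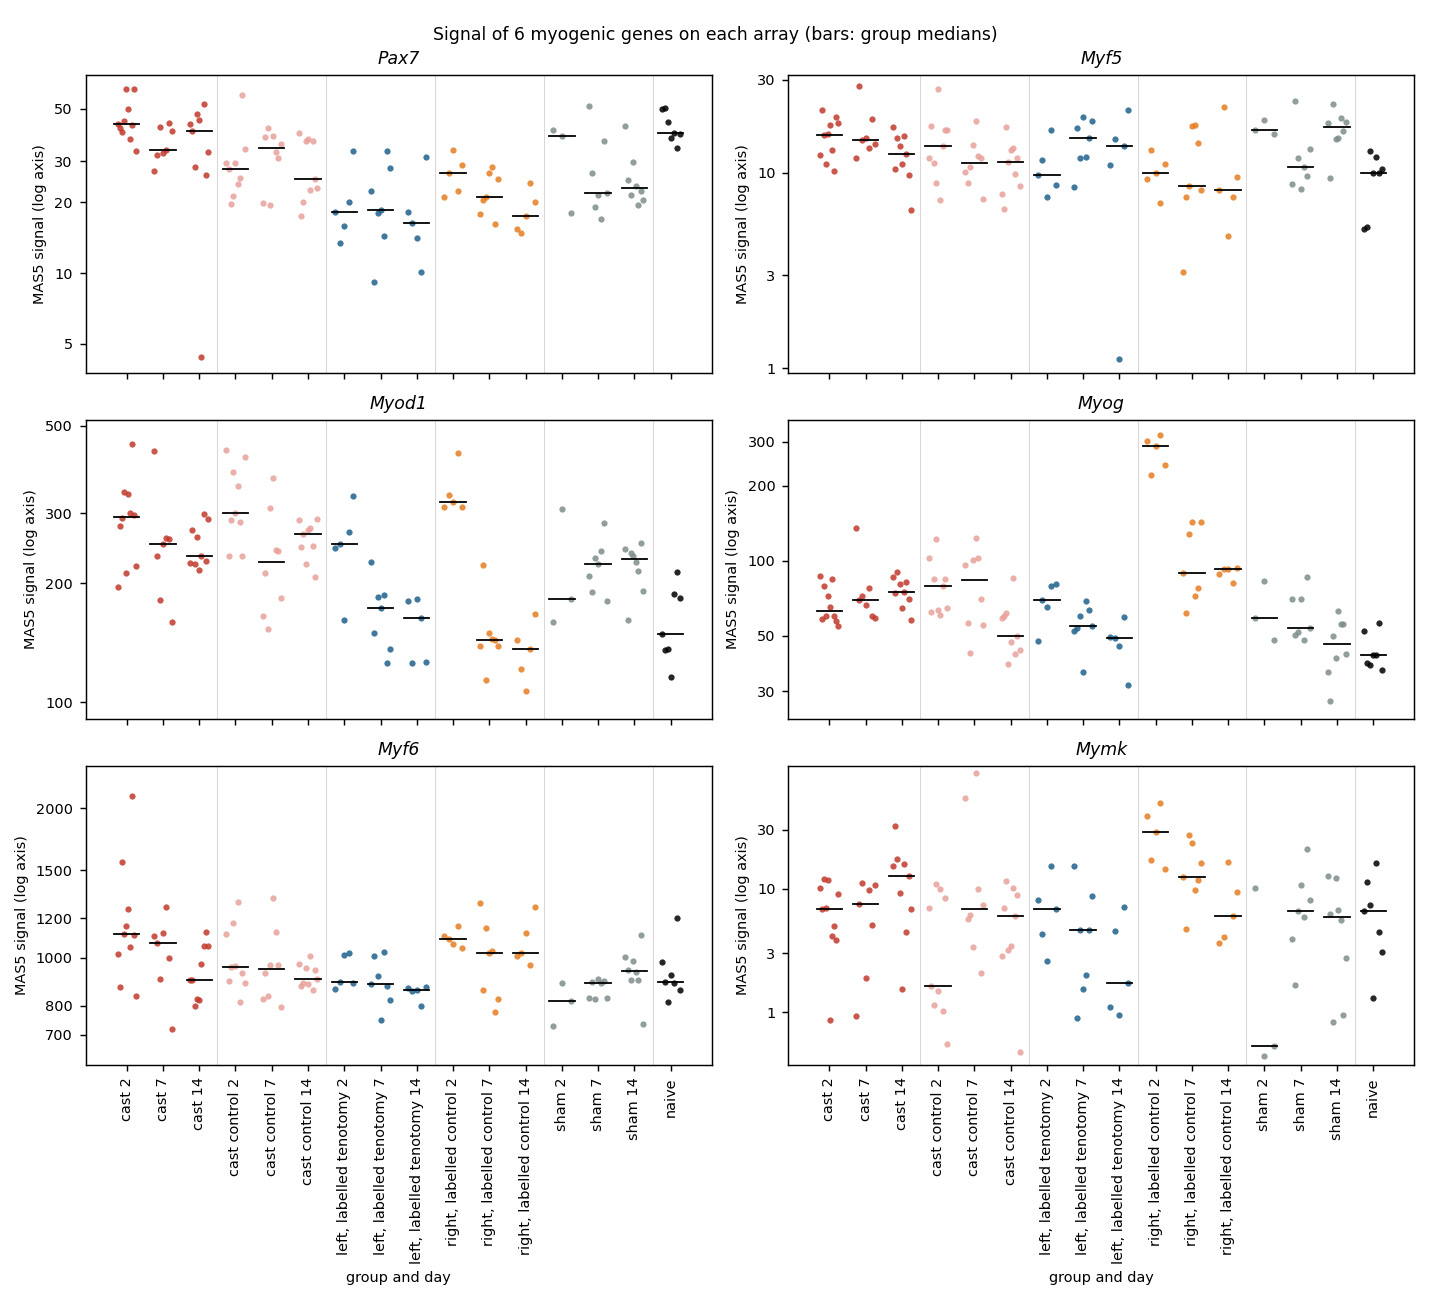
MAS5 signal (log axis) of each of the 6 genes on each array, by group and day, with 1 point per array and a bar at the group median. Myog stands highest in the 5 right legs labelled control at day 2 (220 to 318), above all other arrays of the series.

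Myog, the differentiation factor, varied most between groups on the log2 scale with the constant added. The SD of group means was 0.60 there, against 0.565 for the dimmer Mymk. Group mean signals ran from 43.7 to 274 for Myog and from 3.07 to 29.6 for Mymk. From high to low, the Myog mean took the order right legs labelled control at day 2, day 7 and day 14, then the uncast legs at days 2 and 7, and at the low end naive muscle. The step from the highest group to the next was 1.45 on the log2 scale, against a pooled SD of 0.38, and no other step between neighbours exceeded its pooled SD. For Mymk, too, only the step below the right legs at day 2 (0.82, pooled SD 0.64) did so. Pax7 had its highest mean in cast legs at day 2 and the next in naive muscle, and the one step beyond its pooled SD (0.22, pooled SD 0.21) lay below naive muscle. Neighbouring groups of Myf5, Myod1 and Myf6 did not differ beyond their pooled SD. Myod1 had its highest group mean on the linear scale in right legs labelled control at day 2 (340 ± 48.8, SD, n = 5) and its lowest in right legs labelled control at day 14 (135 ± 22.7, SD, n = 5). Myf6, the late factor, spanned 717 to 2118 over all arrays, with group means between 812 and 1210.

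The promoter of Myog is shown because Myog was called in more of the comparisons below than any other member and because the E-box, CANNTG, is the site that the helix-loop-helix factors bind. RefSeq promoters (GRCm38.p6) were at hand for 3 of the 6 genes, Myog, Pax7 and Myf5. The 250 bases before the annotated start of Myog, chr1:134289754-134290003 on the plus strand, are printed 5′ to 3′ with the E-boxes in capitals.
Myog promoter: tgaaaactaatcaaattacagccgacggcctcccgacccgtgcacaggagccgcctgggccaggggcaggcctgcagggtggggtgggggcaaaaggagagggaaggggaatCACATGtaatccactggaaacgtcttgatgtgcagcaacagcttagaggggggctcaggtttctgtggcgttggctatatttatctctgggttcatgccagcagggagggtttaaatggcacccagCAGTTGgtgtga
The window held 2 E-boxes, CACATG from 138 to 133 bases and CAGTTG from 12 to 7 bases before the start. CANNTG reads the same on both strands, so each match counts once. Of 32851 promoter windows of this length, 66.2% held at least 1 E-box and 31.8% at least 2, so 2 matches are common. The Pax7 and Myf5 windows held 0, as did 33.8% of all windows, which says only that these letters are not in those windows.

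The legs of the tenotomy animals were compared first. Signals listed array by array follow the replicate numbers, which do not pair the legs of an animal. Myog was lower in the left legs labelled tenotomy than in the right legs labelled control at all 3 days, most at day 2, and Mymk at days 2 and 7. Myod1 was lower in the left legs at day 2 and Myf6 at day 14. Pax7 and Myf5 did not pass the test at any day.

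At day 2, 3 of the 6 genes passed the test (limma, Benjamini-Hochberg adjusted p under 0.05), all lower in the left legs, where 36.7% of all tested genes were called. Myog measured 47.6, 69.9, 65.0, 79.5 and 80.8 in left legs labelled tenotomy, and 302.5, 219.7, 287.9, 318 and 243 in right legs labelled control. Every right leg was above every left leg, a separation that was not counted over all genes. The difference was -1.95 (SE 0.19, adjusted p = 3.72e-15), and the left leg was lower in 5 of 5 animals, by 1.40 to 2.26. Mymk measured 8.07, 4.32, 2.59, 15.3 and 6.88 in the left legs, against 38.4, 16.9, 28.7, 49.7 and 14.47 in the right legs. The groups overlapped by 1 array, and the difference was -1.54 (SE 0.44, adjusted p = 0.00275, lower in 5 of 5 animals). Its size depended on the constant added to these low signals, and over the alternatives it ran from -1.91 to -0.92, with the call holding in all 22 that tested Mymk.

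Myod1, which commits myoblasts to the lineage, measured 246, 250.8, 161, 270.0 and 332 in left legs labelled tenotomy at day 2, and 311.1, 333, 320.0, 426 and 311.4 in right legs labelled control. The highest left leg, at 332, lay within the range of the right legs, and the right leg of the same animal measured 333. The difference was -0.45 (SE 0.18, adjusted p = 0.0339, lower in 5 of 5 animals). Without left leg replicate 2 or 3 or right leg replicate 4, each left out in turn, or with array weights or the actin ratio as a covariate, Myod1 did not pass the test (adjusted p up to 0.21). Myf6 measured 866, 893, 1014, 1023 and 889 in the left legs and 1105, 1091, 1064, 1158 and 1046 in the right legs. These ranges did not overlap, which was not counted over all genes, although the difference of -0.22 (SE 0.12) had an adjusted p of 0.15. Pax7 differed by -0.37 (SE 0.25, adjusted p = 0.268) and Myf5 by 0.06 (SE 0.25, adjusted p = 0.893).

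At day 7, 2 of the 6 genes were called, both lower in the left legs, with 32.9% of all genes called. Myog had a lowest, median and highest signal of 35.8, 54.5 and 68.9 in left legs labelled tenotomy, and of 61.9, 89.6 and 143.5 in right legs labelled control. The ranges overlapped slightly, while within animals the left leg was the lower in 7 of 7. The difference was -0.79 (SE 0.16, adjusted p = 4.2e-05). Mymk ran from 0.904 through 4.60 to 15.2 in the left legs and from 4.70 through 12.4 to 26.98 in the right legs. Its difference was -1.07 (SE 0.37, adjusted p = 0.0179, lower in 6 of 7 animals), and -1.53 to -0.53 over the alternatives. It rested on few arrays, since without left leg replicate 2 or right leg replicate 3 or 4 the adjusted p was 0.0521, 0.0557 and 0.0536 in turn. Myf5 differed by 0.38 (adjusted p = 0.159), Myod1 by 0.17 (adjusted p = 0.429), Pax7 by -0.15 (adjusted p = 0.635) and Myf6 by -0.13 (adjusted p = 0.359).

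At day 14, 2 genes were again called lower in the left legs, with 23.2% of all genes called. Myog measured 49.7, 48.9, 45.6, 59.7 and 31.6 in left legs labelled tenotomy, against 88.8, 92.9, 93.0, 81.5 and 93.2 in right legs labelled control. Every right leg was above every left leg. The difference was -0.91 (SE 0.20, adjusted p = 0.000156, lower in 4 of 4 animals with both legs). Myf6 measured 869, 855, 862, 800.6 and 875 in the left legs, against 1009, 1023, 1121, 966 and 1266 in the right legs. These ranges did not overlap either, and for neither gene was the separation counted over all genes. The Myf6 difference was -0.33 (SE 0.12, adjusted p = 0.0376). This call was lost in 10 of 23 alternatives, 7 of them the removal of 1 array, with an adjusted p of up to 0.13. Mymk measured 1.10, 4.53, 0.946, 7.07 and 1.72 in the left legs and 3.62, 4.08, 16.4, 6.04 and 9.46 in the right legs. Its difference of -0.75 (SE 0.44, adjusted p = 0.241) missed the threshold, with the left leg lower in 4 of 4 animals.

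**Figure D2:**
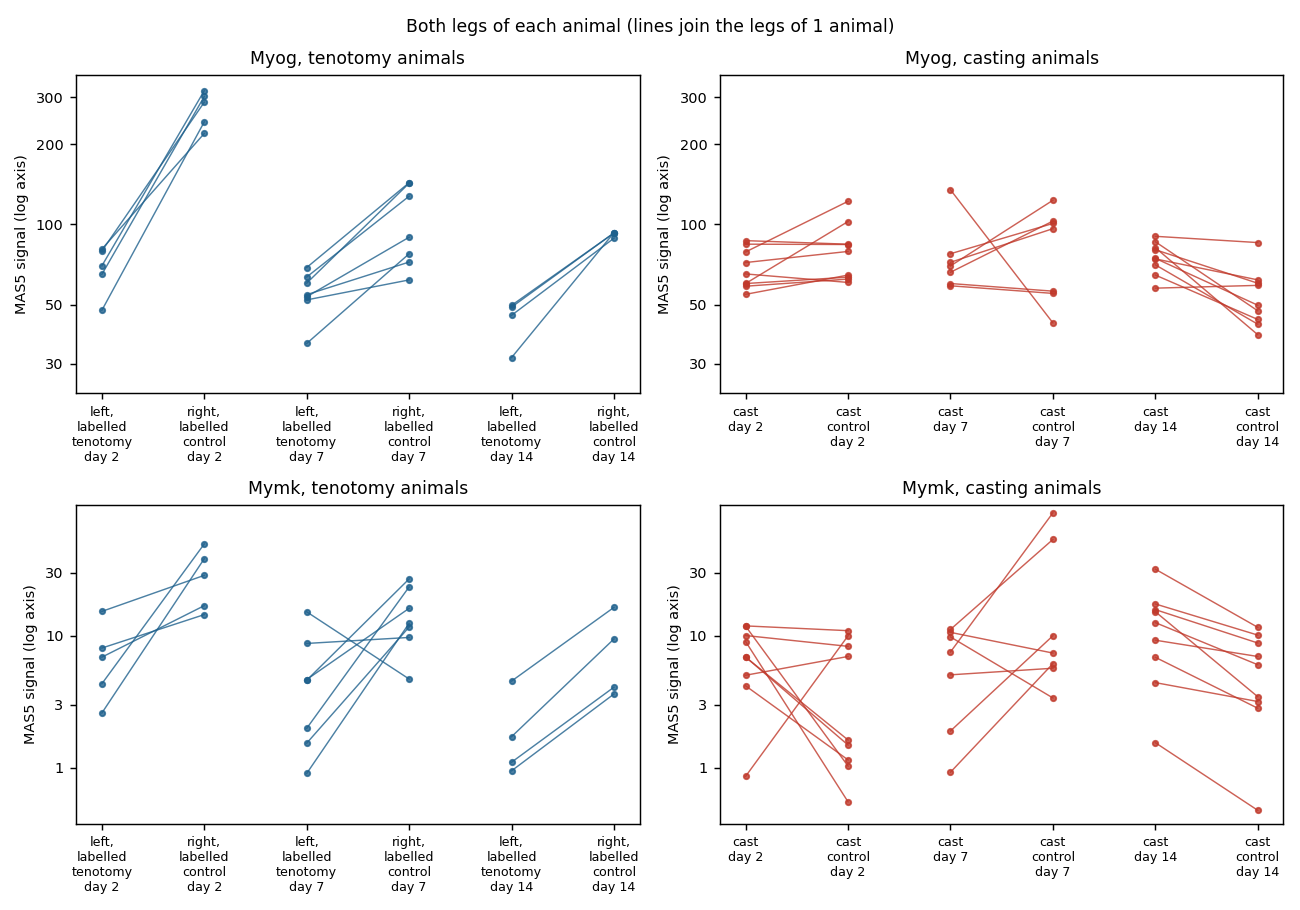
MAS5 signal (log axis) of Myog and Mymk in both legs of each animal, with a line joining the legs of 1 animal, for tenotomy animals (left panels) and casting animals (right panels) at days 2, 7 and 14. Myog was lower in the left leg labelled tenotomy of 5 of 5, 7 of 7 and 4 of 4 tenotomy animals, and higher in the cast leg of 8 of 9 casting animals at day 14.

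Markers of other cell types differed between the same legs. Of 10 macrophage markers, 10, 9 and 8 were called lower in left legs labelled tenotomy at days 2, 7 and 14, and none was at 0. Their summed signal ran from 821 to 1672 in left legs and from 2789 to 7373 in right legs at day 7, and from 890 to 1347 in left legs and from 2194 to 3683 in right legs at day 14. Of 8 fibroblast markers tested, 7, 8 and 7 were called lower in left legs at the 3 days, and of 10 mature fibre markers 5, 3 and 0 were called higher. Their part in the results on Myog, Mymk and Myod1 was not tested. With the actin ratio as a covariate, the Myog difference was -1.96, -0.80 and -0.92 at the 3 days.

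The cast legs were compared with the uncast legs of their cohort next. Pax7, the satellite cell factor, and Myf6 were higher in cast legs at day 2, no member passed the test at day 7, and Myog was higher at day 14. Myf5 and Myod1 did not pass at any day.

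At day 2 of casting, 2 of the 6 genes were called, both higher in cast legs, with 24.3% of all genes called. Pax7 had a lowest, median and highest signal of 33.0, 43.0 and 60.9 in cast legs, and of 19.6, 27.7 and 57.5 in uncast legs. The groups overlapped through 2 uncast legs: replicate 8, at 57.5, lay among the highest cast legs, and replicate 9, at 33.8, lay just above the lowest cast leg. The difference was 0.58 (SE 0.18, adjusted p = 0.0124), and the cast leg was the higher in 7 of 9 animals. The other Pax7 probe set gave a difference of group means of 0.24 at day 2, in the same direction, and of -0.21 at day 7, against 0.17 for the probe set used. Mean Pax7 at day 2 was 45.4 in cast legs and 29.8 in uncast legs. In naive muscle, against which cast legs were not tested, it was 42.2. Uncast legs at day 2 differed from naive muscle by -0.49 (SE 0.21, adjusted p = 0.0731), and by -0.12 with the other probe set. Myf6 ran from 839 through 1114 to 2118 in cast legs and from 812.5 through 957 to 1297 in uncast legs. Its difference was 0.23 (SE 0.09, adjusted p = 0.0437, higher in 6 of 9 animals), and the call was lost in 16 of 32 alternatives. The differences of the other members were -0.21 for Myog (SE 0.14, adjusted p = 0.317), -0.16 for Myod1 (SE 0.13, adjusted p = 0.436), 0.11 for Myf5 and 0.43 for Mymk (adjusted p = 0.381).

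At day 7 of casting, 0 of the 6 genes passed the limma test, with 8.77% of all genes called, and none had an unadjusted p under 0.05. Mymk ran from 0.924 through 7.54 to 11.2 in cast legs and from 2.08 through 6.77 to 85.5 in uncast legs. In 2 of the 8 uncast legs it reached 53.7 and 85.5, above every other array of the series, while the cast legs of the same animals measured 11.2 and 7.54. The difference was -0.68 (SE 0.36, adjusted p = 0.287). Myf5 ran from 11.9 through 14.7 to 27.7 in cast legs and from 7.34 through 11.3 to 18.3 in uncast legs, and its difference of 0.38 (SE 0.20) had an adjusted p of 0.285. The 95% interval of the Myog difference ran from -0.36 to 0.27, and that of Myod1 from -0.18 to 0.40.

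At day 14 of casting 1 of the 6 genes was called, with 13.2% of all genes called. Myog had a lowest, median and highest signal of 57.7, 74.6 and 90.3 in cast legs, and of 38.6, 49.8 and 85.5 in uncast legs. The ranges overlapped through 4 uncast legs, of which replicate 6, at 85.5, was the highest and replicate 3, at 62.0, the next. The difference was 0.47 (SE 0.14, adjusted p = 0.017), higher in the cast leg of 8 of 9 animals, and it passed the threshold under all 31 alternatives. Mymk was higher in the cast leg of 9 of 9 animals, by 0.23 to 1.37, but its signals stayed low, at 1.55 to 32.0 in cast legs and 0.475 to 11.6 in uncast legs, and the difference of 0.67 (SE 0.33) had an adjusted p of 0.176. Pax7 measured 4.42 in cast leg replicate 6, one of 2 arrays whose low end was raised, against 26.1 to 52.3 in the other cast legs. Macrophage markers differed in the same direction as Myog, with 9 of 10 called higher in cast legs and a summed signal of 2701 to 6029 in cast legs and 1494 to 3368 in uncast legs, and their part in the result was not tested.

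**Figure D3:**
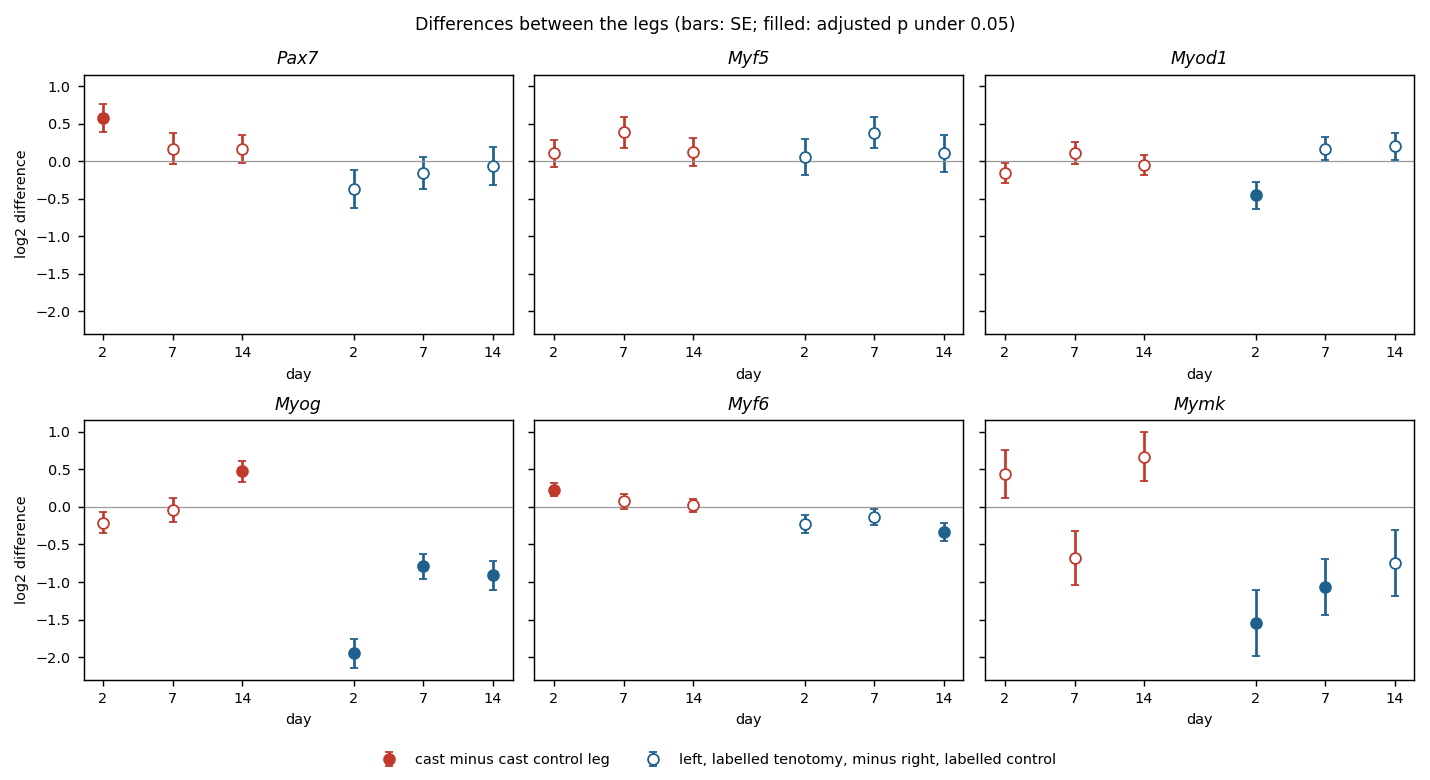
Differences between the legs on the log2 scale with their SE, for each gene and day, cast minus uncast legs and left legs labelled tenotomy minus right legs labelled control. Filled points passed the test. Myog is at -1.95, -0.79 and -0.91 in the tenotomy animals and at -0.21, -0.04 and 0.47 in the casting animals.

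The difference between the models was tested as the leg difference of the tenotomy animals minus that of the casting animals. The first was left labelled tenotomy minus right labelled control, the second cast minus uncast. This test rests on the sample labels. With the right leg as the operated one, the tenotomy leg difference would change sign, the sizes below would change and the calls could differ. That version was not computed. At day 2, 4 of the 6 genes differed, all with the more negative value in the tenotomy animals, and 34.9% of all genes were called. Myog differed by -1.74 (SE 0.24, adjusted p = 2.15e-09), Mymk by -1.97 (SE 0.54, adjusted p = 0.00204), Pax7 by -0.95 (SE 0.31, adjusted p = 0.011) and Myf6 by -0.46 (SE 0.15, adjusted p = 0.0114). Over the alternatives the Mymk difference ran from -2.66 to -1.09. With the actin ratio as a covariate the Pax7 difference was -0.73 (adjusted p = 0.1). The other Pax7 probe set gave -0.34 from the group means at day 2. At day 7, 1 gene was called, Myog, by -0.75 (SE 0.23, adjusted p = 0.00715), with 29.5% of all genes called. At day 14, 2 genes were called, with 28.7% of all genes called. Myog differed by -1.38 (SE 0.24, adjusted p = 2.65e-06) and Mymk by -1.42 (SE 0.55, adjusted p = 0.042). The Mymk call at day 14 did not hold in 18 of 40 alternatives (adjusted p up to 0.118), and its size ran from -2.13 to -0.67.

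Between days 14 and 2, the leg difference of Myog, taken as left minus right in the tenotomy animals, shifted upward in both models. Myog was the 1 member called in each. Taken as right minus left, the shift in the tenotomy animals would have the opposite sign, so a shared direction rests on the sample labels. Mean Myog was 80.4 and 54.3 in uncast legs and 67.8 and 75.6 in cast legs at days 2 and 14. In right legs labelled control it was 274 and 89.9, and in left legs labelled tenotomy 68.6 and 47.1. In casting animals the shift was 0.69 (SE 0.20, adjusted p = 0.0117), with 14.3% of all genes called. In tenotomy animals it was 1.04 (SE 0.28, adjusted p = 0.00707), with 8.15% called, so that the left legs labelled tenotomy stood less far below the right legs at day 14 than at day 2. Myod1 shifted by 0.65 in tenotomy animals (SE 0.25, adjusted p = 0.0974).

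Sham muscle gave a set of legs outside either pair. Against sham, the right legs labelled control carried higher Myog at all 3 days, whereas Myog in the left legs labelled tenotomy did not pass the test against sham at any day. Myod1 was higher than sham in the right legs at day 2 and lower at days 7 and 14. These comparisons share the sham muscles, and the right and left legs share animals.

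At day 2, 4 of the 6 genes were called in the right legs labelled control against sham, all higher, with 35% of all genes called. Sham muscles measured 58.7, 83.3 and 48.0 for Myog, 10.2, 0.444 and 0.537 for Mymk, 159, 307 and 183 for Myod1, and 729, 887 and 819.6 for Myf6. Every right leg was above every sham muscle for each of these 4 genes, a separation that was not counted over all genes. The differences were 2.07 for Myog (SE 0.24, adjusted p = 2.1e-12), 2.24 for Mymk (SE 0.53, adjusted p = 0.000347), 0.69 for Myod1 (SE 0.22, adjusted p = 0.00697) and 0.43 for Myf6 (SE 0.15, adjusted p = 0.0153). All 3 sham muscles were below the low-signal mark for Mymk, and over the alternatives its difference ran from 1.19 to 3.25, with the call holding in all 19 that tested it. With 3 sham muscles, single arrays mattered, and without sham replicate 1 Myod1 and Myf6 had adjusted p of 0.11 and 0.102. The Myod1 call was also lost without sham replicate 3, and the Myf6 call with the actin ratio as a covariate. Myf5 measured 9.27, 13.1, 10.0, 7.02 and 11.1 in the right legs against 16.6, 18.6 and 15.8 in sham muscles. These ranges did not overlap, which was likewise not counted over all genes, and the difference was -0.59 (SE 0.30, adjusted p = 0.123).

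At day 7, 2 genes were called in the right legs against sham, 1 in each direction, with 41.2% of all genes called. Myog was higher by 0.66 (SE 0.17, adjusted p = 0.000944). Myod1 differed by -0.57 (SE 0.16, adjusted p = 0.00175), at 150.0 ± 33.8 in right legs and 223 ± 34.7 in sham muscles (SD, n = 7 each). With the actin ratio as a covariate, whose median was 0.18 in right legs and -1.26 in sham muscles, the Myod1 difference was -0.52 and did not pass the test (adjusted p = 0.0794). At day 14, 3 genes were called, 1 higher and 2 lower, with 35.9% of all genes called. Myog differed by 0.94 (SE 0.18, adjusted p = 1.24e-05), and the 5 right legs (81.5 to 93.2) lay above all 8 sham muscles (27.4 to 62.8). Such separation was not counted over all genes. Myod1 measured 143.5, 121, 107, 136 and 167 in the right legs, against a lowest, median and highest of 162, 230 and 253 in sham muscles, a difference of -0.69 (SE 0.17, adjusted p = 0.000438). Myf5 measured 8.20, 21.7, 4.77, 7.56 and 9.50 in the right legs, against 9.43, 17.2 and 22.5 in sham muscles, a difference of -0.60 (SE 0.23, adjusted p = 0.0344) that did not hold without any 1 of right leg replicates 1, 3, 4 and 5.

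In the left legs labelled tenotomy, 0 of the 6 genes were called against sham at day 2, with 9.99% of all genes called, and 0 at day 7, with 19.1% called. No member had an unadjusted p under 0.05 at day 2, and 1 (Myod1) did at day 7. Myog differed from sham by 0.12 at day 2 (95% interval -0.35 to 0.59), by -0.13 at day 7 (-0.48 to 0.21) and by 0.03 at day 14 (-0.33 to 0.40). At day 14, 1 gene was called, with 20.7% of all genes called, namely Myod1 with a difference of -0.50 (SE 0.17, adjusted p = 0.0232). The left legs measured 180, 125, 183, 163.5 and 126.5 for Myod1, and overlapped the sham range. Without left leg replicate 2 or 5 this call was lost, and the other, dimmer Myod1 probe set gave a difference of group means of 0.32.

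Naive muscle served as the untouched level. Of the 6 genes, 0 passed the limma test in sham muscle against it at day 2, where 0% of all genes were called and 1120 had an unadjusted p under 0.05, among them Myf5 and Myog. The members called numbered 0 at day 7, with 0.63% of all genes called, and 0 at day 14, with 2.26% called. At day 14, Pax7 differed by -0.67 (SE 0.22, adjusted p = 0.0827), Myf5 by 0.64 (SE 0.21, adjusted p = 0.0879) and Myod1 by 0.47 (SE 0.15, adjusted p = 0.0823). At day 7, Pax7, Myod1 and Myog had an unadjusted p under 0.05 (adjusted p = 0.28, 0.179 and 0.329). The other Pax7 probe set gave differences of group means of 0.005, -0.017 and -0.096 between sham and naive muscle at days 2, 7 and 14.

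The uncast legs of the casting animals carried higher Myod1 than naive muscle at all 3 days and higher Myog at days 2 and 7. At day 2, 2 genes were called, both higher, with 27.9% of all genes called. Myod1 had a lowest, median and highest signal of 234, 301 and 434.5 in uncast legs, and of 116, 149 and 213 in naive muscle. Myog ran from 60.6 through 79.2 to 122 in uncast legs and from 36.5 through 41.8 to 56.4 in naive muscle. Neither gene overlapped between the groups, and such separation was not counted over all genes. The differences were 1.00 for Myod1 (SE 0.15, adjusted p = 5.16e-08) and 0.80 for Myog (SE 0.16, adjusted p = 4.75e-05).

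At day 7, 2 genes were called higher in uncast legs than in naive muscle, with 23.1% of all genes called, Myod1 by 0.51 (SE 0.15, adjusted p = 0.00768) and Myog by 0.77 (SE 0.17, adjusted p = 0.000176). At day 14, 2 genes were called in opposite directions, with 27.5% of all genes called. Myod1 was higher by 0.70 (SE 0.15, adjusted p = 0.000109), and Pax7 differed by -0.53 (SE 0.21, adjusted p = 0.0487), at 28.7 ± 8.62 in uncast legs (n = 9) and 42.2 ± 6.34 in naive muscle (n = 7). The Pax7 call was lost in 9 of 21 alternatives, and the other Pax7 probe set gave a difference of group means of -0.03. Myog differed from naive muscle by 0.27 at day 14 (SE 0.16, adjusted p = 0.23). The uncast legs were left legs of animals with a cast on the other leg and the naive muscles were right legs, so leg side, cohort and the other leg's cast cannot be told apart here. Other measures moved with these differences. The actin ratio had medians of -0.77, -0.43 and -0.29 in uncast legs at days 2, 7 and 14, against -1.18 in naive muscle. The Gapdh ratio had medians of -0.28, -0.27 and -0.29 in uncast legs, against -0.19 in naive muscle. The 10 mature fibre markers had summed median signals of 93488, 81934 and 83097 in uncast legs against 158393 in naive muscle, with 9, 9 and 10 called lower and none at 0. The 10 macrophage markers had summed medians of 2048, 2233 and 2112 in uncast legs against 1383 in naive muscle, with 8, 7 and 7 called higher and none at 0. Their part in the result was not tested.

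**Figure D4:**
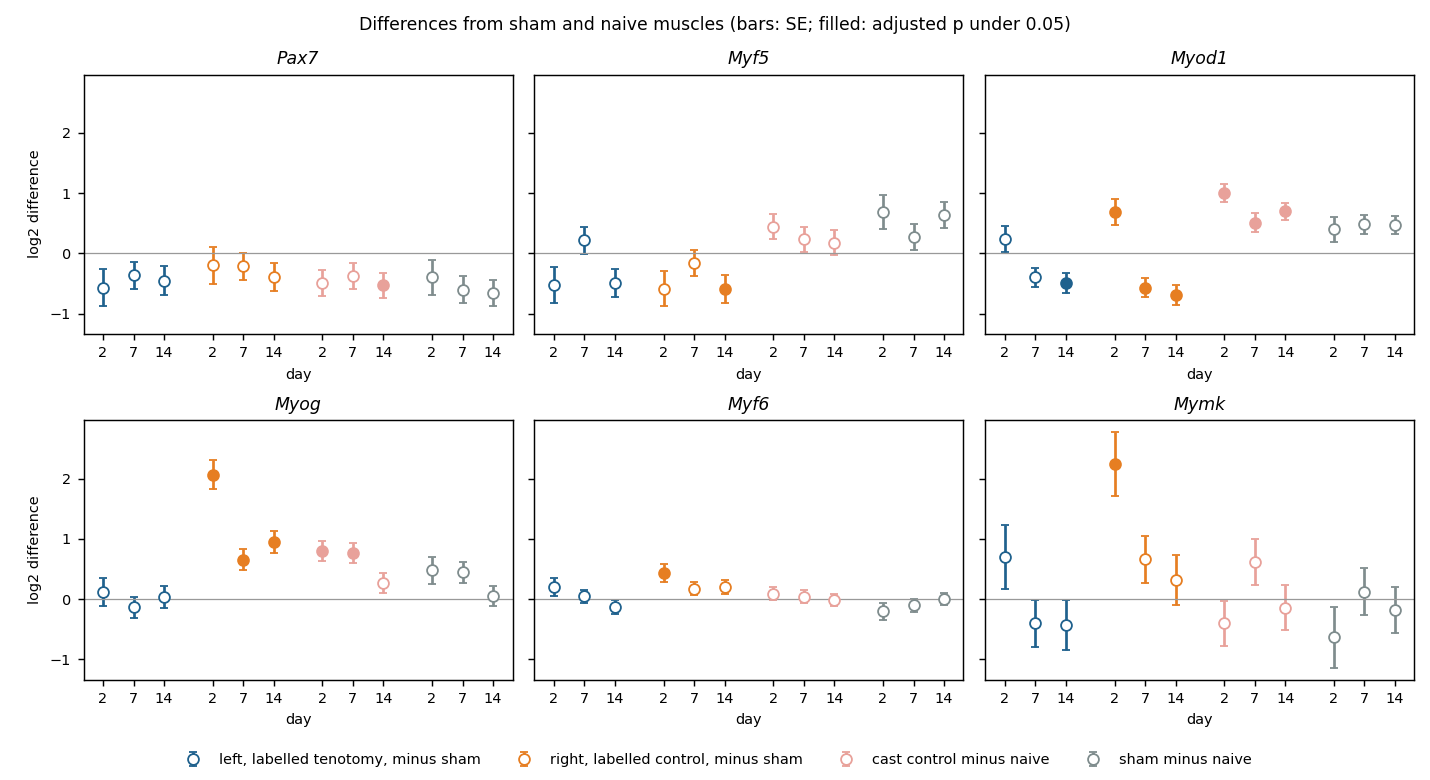
Differences on the log2 scale with their SE from sham muscle (left legs labelled tenotomy, right legs labelled control) and from naive muscle (uncast legs, sham muscle), by gene and day. Filled points passed the test. Myog in the right legs stands at 2.07, 0.66 and 0.94 above sham, and Myod1 in the uncast legs at 1.00, 0.51 and 0.70 above naive muscle.

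Genes that work with the members were read from 6 lists, and the same direction did not run through all of them. In the 6 leg comparisons the median difference of all tested genes lay between -0.03 and 0.04, and the shares of all genes called are those given above. Proliferation genes, 19 of them tested, stood out by their counts in the tenotomy animals, with 16, 13 and 7 called lower in left legs labelled tenotomy at days 2, 7 and 14 and 0, 1 and 1 called higher. Their median differences were -1.46, -0.94 and -0.54. The mitotic kinase Cdk1 differed by -3.43, -2.64 and -1.57 at the 3 days, and Birc5 (survivin), which acts in cell division, by -3.20, -2.83 and -1.44. In cast legs 1, 0 and 4 were called higher and 5, 1 and 1 lower. At day 14 the division marker Mki67 differed by 1.00 (SE 0.27) and Cdk1 by 0.96 (SE 0.34) there.

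Among 25 tested genes of myoblast recognition and fusion, 10, 10 and 8 were called lower in left legs labelled tenotomy at the 3 days and 2 were called higher at each. Their median differences were -0.30, -0.23 and -0.21. Mymx (myomixer), the small protein that works with Mymk in fusion, differed by -1.65 (SE 0.36) at day 2 and by -0.85 (SE 0.30) at day 7, both called, and by 0.36 (SE 0.36) at day 14, not called. Adam12, a metalloprotease of fusing myoblasts that other cells of damaged tissue also make, differed by -2.78, -3.12 and -1.53. In cast legs 1, 0 and 4 genes were called higher and 5, 3 and 1 lower. Adam12 differed by 1.08 (SE 0.33) and the tetraspanin Cd9 by 0.53 (SE 0.14) at day 14, and Mymx passed at none of the 3 days.

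**Figure D5:**
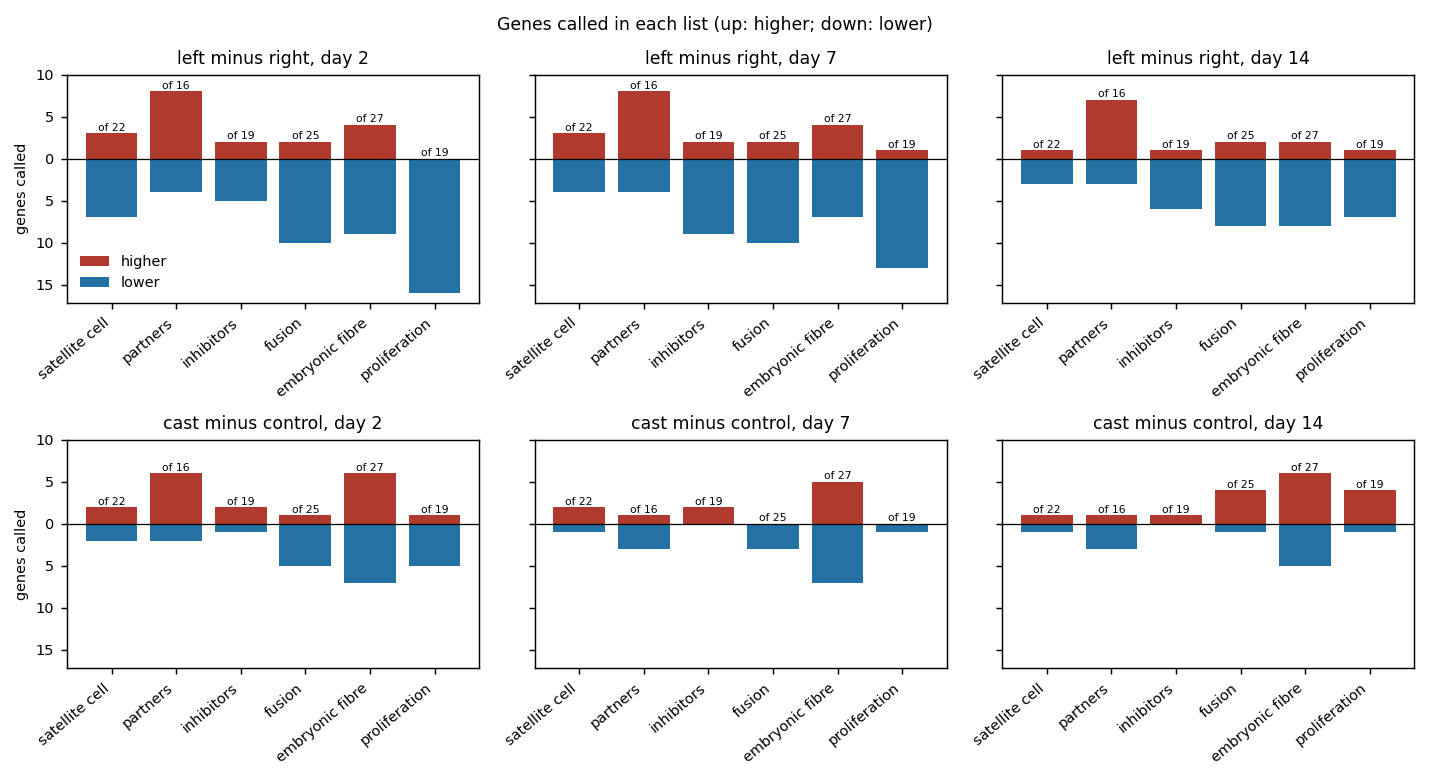
Number of genes called higher (above 0) and lower (below 0) in each of 6 gene lists, with the number tested, in left legs labelled tenotomy minus right legs labelled control (upper row) and in cast minus uncast legs (lower row), by day. The proliferation list has 16 of 19 genes called lower in the left legs at day 2.

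Among partners of the myogenic factors, more were called higher than lower in the left legs. Of 16 tested E protein, MEF2 and chromatin genes, 8, 8 and 7 were called higher in left legs labelled tenotomy at the 3 days and 4, 4 and 3 lower, with medians of 0.23, 0.22 and 0.13. Srf, a factor that drives actin and other muscle genes, differed by 1.00, 0.77 and 0.52, and Smarcd3 (BAF60c), a chromatin remodelling subunit that works with Myod1, by 0.93, 0.72 and 0.80. In cast legs Srf was lower at all 3 days (-0.53, -0.61 and -0.48), and the counts were 6, 1 and 1 higher and 2, 3 and 3 lower. Vgll2, a muscle cofactor of the TEAD factors, was called at days 7 and 14 in both models, by 0.99 and 0.73 in left legs against right legs and by -0.58 and -0.43 in cast legs against uncast legs.

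Of 19 tested inhibitors of the myogenic factors, 5, 9 and 6 were called lower in left legs labelled tenotomy and 2, 2 and 1 higher, with medians of -0.03, -0.20 and -0.18. Snai2, a repressor also known from mesenchymal cells, differed by -2.17, -2.48 and -1.35. Id2, which sequesters E proteins, differed by -1.32 at day 2 and -0.85 at day 7. In cast legs 2, 2 and 1 were called higher and 1, 0 and 0 lower. Hdac4, a deacetylase that represses MEF2 and rises in denervated muscle, was higher by 0.91 (SE 0.11) at day 2 and by 0.43 (SE 0.12) at day 7, and Id1 differed by -0.72 (SE 0.17) at day 2.

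Of 22 tested satellite cell and progenitor genes other than Pax7, 7, 4 and 3 were called lower and 3, 3 and 1 higher in left legs labelled tenotomy, with medians of -0.09, 0.01 and -0.12. Vcam1, an adhesion molecule of satellite cells and of endothelium, differed by -1.57, -1.09 and -0.90, and the heparan sulphate proteoglycan Sdc3 by -1.57, -0.78 and -0.53. In cast legs 2, 2 and 1 were called higher and 2, 1 and 1 lower. Itga7, the laminin receptor subunit of satellite cells and fibres, was higher by 0.42 at day 7 and 0.56 at day 14, and Cdh15 (M-cadherin) by 0.35 at day 7. Sdc4 differed by -0.47 at day 2, when Pax7 was higher in the same legs.

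Embryonic fibre genes and targets of the factors split in both models. Of 27 tested, 4, 4 and 2 were called higher and 9, 7 and 8 lower in left legs labelled tenotomy, with medians of 0.02, -0.25 and -0.12. Sln (sarcolipin), an inhibitor of the calcium pump, differed by -3.90 at day 7 and -4.44 at day 14, while Actc1, the cardiac actin of developing muscle, differed by 1.54 at day 2 and 2.47 at day 7. In cast legs 6, 5 and 6 were called higher and 7, 7 and 5 lower. Actc1 differed there by -2.52 at day 7 and -1.17 at day 14, and Myh3 (embryonic myosin) by -1.85 at day 7.

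Likeness of pattern was measured as Pearson's r with every tested gene over the 16 group means, which share arrays, scaling and controls. Closest to Myog were Slfn2 (0.95), Ms4a6b (0.95) and Cd300c2 (0.95), and closest to Mymk were Cdk1 (0.89), Mki67 (0.89) and Mcm5 (0.88). Both members stood highest in right legs labelled control at day 2, by 1.45 and 0.82 above the next group. Their r values over group means rest in part on that group, and r without it was not computed. Myod1 was followed most closely by Lrrc59 (0.94), Tbc1d20 (0.93) and Bop1 (0.91). For Pax7 the closest genes were Pik3r1 (0.91), Atp6v1b2 (0.90) and Tmem30a (0.89). For Myf6 they were Ogfr (0.89), Nepro (0.89) and Brox (0.86), and for Myf5, whose group means varied little (SD 0.23), Fam227b (0.81), Amer1 (0.80) and Sim1 (0.79). Among the members themselves, Myog and Mymk had the highest r over group means (0.82), and 0.33 over the 111 arrays once the group means were removed. Within groups the highest r was 0.44, between Myod1 and Myf6.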

How the data were processed

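Gastrocnemius RNA was hybridised to 111 Affymetrix arrays. The authors deposited MAS5 signal intensity, linear and not log-transformed, made with MAS5 and GCOS per the submitters' processing notes, with versions not given in the sources used here. The mean after removal of 2% of values at each end was close to 100 on every array (99.95 to 99.97), so each array had been scaled. Of 45101 probe sets, 34958 had 1 gene symbol, 932 several and 9211 none in the platform annotation, and only the first kind was named. The number of arrays limits the precision.

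A gene kept its probe set with the highest mean and was tested if it exceeded the array's 40th percentile on 5 or more arrays. limma 3.58.1 in R 4.3.3 was fitted to log2(signal + 3.98), with 16 group means and a variance trend, and with arrays of one animal treated as correlated (0.0964). P-values were adjusted by Benjamini-Hochberg within each comparison over 16029 genes, with a threshold of 0.05. The fit was tested on simulated data. Pairing came from the animal numbers in the labels, and the residuals of both legs of an animal had a mean correlation of 0.0657 over 25 casting pairs and 0.0597 over 16 tenotomy pairs.

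The alternatives were other pseudocounts, filters, scalings and probe set rules, array weights, no trend, other treatments of the block, the actin ratio as a covariate, only the groups compared, and single arrays left out. The 6 genes, the 6 lists and the markers were chosen with earlier results of these data known. The genes named in each list were those with the largest called differences in each comparison, given also at the other days, and Mymx. Samples were grouped by their labels, with day 2 sham muscles grouped by title.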

Additional observations from a re-analysis of the deposited data

Results flagged for a closer look

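In 11 of 90 sets of 4 to 10 arrays, 1 array stood apart from the rest of its group, where chance gives about 1 in 20. For Pax7 these were uncast leg replicate 8 at day 2 (57.5, the next at 33.8) and sham replicate 1 at day 14 (42.4, the next at 29.7). For Myf5 they were sham replicate 2 at day 7 (23.4, the next at 13.2) and right leg labelled control replicate 2 at day 14 (21.7, the next at 9.50). Myod1 had 3, cast leg replicate 1 at day 7 (432, the next at 259.8), right leg labelled control replicate 4 at day 2 (426, the next at 333) and right leg labelled control replicate 2 at day 7 (222, the next at 149). Myog had 2, cast leg replicate 1 at day 7 (135, the next at 77.7), the same array as for Myod1, and uncast leg replicate 6 at day 14 (85.5, the next at 62.0). Myf6 had naive replicate 6 (1204, the next at 982) and left leg labelled tenotomy replicate 4 at day 14 (800.6, the next at 855).

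With the tenotomy leg difference taken as left minus right, as the sample labels give it, it differed from the casting leg difference in 7 tests. At day 2 the values were -1.74 for Myog, -1.97 for Mymk, -0.95 for Pax7 and -0.46 for Myf6. At day 7 the value for Myog was -0.75. At day 14 they were -1.38 for Myog and -1.42 for Mymk. Between days 14 and 2, the Myog leg difference shifted by 0.69 in casting animals and by 1.04, taken as left minus right, in tenotomy animals.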

How the results depend on the processing

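For the 35 results on the 6 genes that passed the threshold, 943 alternative values were computed, of which 869 kept direction and call, 74 lost the call and 0 reversed. All Myog results held under every alternative run. The lost calls fell on 12 results, and 51 of the 74 came from leaving out 1 array. Leaving out single arrays of the casting groups and of the day 7 tenotomy groups was chosen after seeing the data. The cause of the lost calls was not tested.

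The count of genes called changed by more than 1.5 times in 10 comparisons. Cast against uncast legs at day 2 had 1 called in place of 2 with no filter, quantile normalization, no replicate block, the mean of probe sets, no variance trend and only the groups compared, and 1 to 2 with single arrays left out. Left legs labelled tenotomy against right legs labelled control had 1 in place of 2 at day 7 under the stricter filter (1 to 2 with single arrays left out), and 1 in place of 2 at day 14 with no replicate block, array weights or the actin covariate (1 to 2). The difference between models at day 14 had 1 in place of 2 with a pseudocount of 16, the stricter filter, no replicate block or with the 2 arrays of raised low signals left out (1 to 2). The stricter filter left Mymk untested, both here and in left against right legs at day 7. Right legs against sham had 2 to 4 at day 2, with 2 when sham replicate 1 was left out, and 1 in place of 2 at day 7 with the actin covariate, which lost Myod1. Left legs against sham had 1 in place of 0 at day 7 under the stricter filter, array weights and only the groups compared, each time Myod1 (0 to 1 with single arrays left out), and at day 14 had 2 with the actin covariate and 0 to 1 with single arrays left out. Sham against naive at day 14 had 1 in place of 0 with array weights (Myod1) and 2 with only the groups compared (Pax7 and Myod1). Uncast legs against naive at day 14 had 1 in place of 2 with a pseudocount of 1, no filter, quantile normalization or the mean of probe sets (1 to 2 with single arrays left out). Smaller changes of the count fell in 4 other comparisons, on Myod1, Myf6 and Mymk, which the stricter filter left untested (left against right legs at day 2), Pax7 and Mymk (models at day 2), Myf5 (right legs against sham at day 14), and Pax7 and Myf5 (uncast against naive at day 2).

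Without the replicate block for the animal, Myf6 in cast against uncast legs at day 2 stayed at 0.23 (adjusted p = 0.0667), Myf6 in left against right legs at day 14 was -0.33 (adjusted p = 0.056), and the Mymk difference between models at day 14 was -1.40 (adjusted p = 0.0607). The animal as a fixed replicate block changed no call among the 6 genes. The low signals of Mymk and Myf5 limit what can be read from them. They lay above the array's 40th percentile on 23 and 57 of 111 arrays.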
